A study of Rattus norvegicus with 52 samples.

Results

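Luminal progenitors of the mammary gland were sorted in this study with either of 2 surface reagents, and the 8 RNA libraries of those sorts are compared here. PNA+ cells bound peanut agglutinin, a lectin, and Cd49b+ cells carried the integrin alpha chain Cd49b. The libraries were chosen by their labels alone, as the 4 PNA+ and the 4 Cd49b+ count files of rats aged 9 weeks, which is 8 of the 52 samples of the series. They came from female virgin rats labelled ACI, an inbred strain prone to oestrogen-induced mammary tumours, that were *Cdkn1b*+/+ or *Cdkn1b*-/-, with 2 libraries for each genotype and sort. Both sorts shared the Cd24+ Cd29LOW gate that holds the luminal cells. *Cdkn1b* encodes p27, an inhibitor of cyclin-dependent kinases, and the *Cdkn1b*-/- rats carried 1 of 2 deletion alleles (DEL-32 or DEL-65) in the germline, so that the deletion is not limited to the mammary gland. The alleles were made in outbred Sprague-Dawley rats and backcrossed to ACI, and females of both genotypes were taken from heterozygous crosses at an early and a late backcross generation. The labels do not say which allele or generation each library has. Neither sort is labelled as negative for the other reagent, so the same cells could have entered both. PNA+ and Cd49b+ libraries with the same genotype and number were taken as 1 rat, which gives 4 pairs.

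Luminal epithelium lines the ducts and alveoli and holds hormone-sensing cells, with oestrogen and progesterone receptors, and cells that make milk proteins under prolactin and Stat5. Basal myoepithelial cells lie outside it, contract under oxytocin and carry the basal keratins. Peanut agglutinin binds a galactose of the O-glycan T antigen when sialic acid does not cover it, and Cd49b is a collagen receptor used to enrich luminal progenitors in rodents.

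The 8 libraries held 22619330 to 33859550 counts on genes, of which 26340323 to 31144701 were in PNA+ and 22619330 to 33859550 in Cd49b+ libraries, and 11725 genes were tested. Levels are given as CPM, counts scaled to a common library size, which compare a gene between libraries and not genes with each other. *Cdkn1b* itself stood at 9.33 and 7.66 CPM in the PNA+ and 10.7 and 6.15 CPM in the Cd49b+ libraries of *Cdkn1b*+/+ rats and at 2.36 and 2.20 CPM and 1.84 and 2.38 CPM in *Cdkn1b*-/- rats, lower in every knockout library, as far as a small deletion lets counts check a label. The gene of Cd49b, *Itga2*, was not analysed here, so that gate cannot be checked by its own transcript. The second *Cdkn1b*-/- Cd49b+ library had the highest *Krt5* of the 8 (167 CPM) and lay farthest from the PNA+ library of its rat, and the counts over all genes and the lists are therefore also given without that rat where this changes them.

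The label of luminal progenitor was checked against markers and the 4 mature luminal libraries of the same rats, which were sorted as negative for both reagents. Of 15 luminal progenitor genes tested, 2 were higher (*Hey1* and *Tnfrsf11b*) and 7 lower in the PNA+ and Cd49b+ libraries than in the mature luminal libraries at an adjusted p under 0.05 in an edgeR fit of the 12 luminal libraries, where 52.4% of all 12518 genes passed, 22.9% higher and 29.5% lower. Among the 7 were *Elf5*, an alveolar transcription factor with a log2 fold change of -0.80, and *Ltf*, which encodes lactoferrin, with -4.63. *Ltf* had only 2 counts over the 8 PNA+ and Cd49b+ libraries, with 6 of them at 0, so that the size of its change is uncertain. *Kit*, the receptor tyrosine kinase used to mark these progenitors, gave -0.17 with an adjusted p of 0.294. Of 17 hormone-sensing genes, 6 were higher and 0 lower, among them *Pgr*, the progesterone receptor, with a log2 fold change of 1.23, and *Prlr*, the prolactin receptor, with 1.09. The medians were -0.40 over the luminal progenitor and 0.57 over the hormone-sensing genes, beside -0.07 over all genes. The luminal progenitor genes were thus not higher as a group in the libraries labelled luminal progenitors, and the 2 populations are called PNA+ and Cd49b+ below.

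Over both genotypes the median log2 fold change of PNA+ over Cd49b+ cells was negative for basal, endothelial and fibroblast transcripts and positive for milk protein transcripts. In *Cdkn1b*+/+ rats the fibroblast median was only -0.21. None of these differences passed the threshold over both genotypes: 0 of 11725 genes had an adjusted p under 0.05 in edgeR's quasi-likelihood test with the rat as a block, where 2260 had an unadjusted p under 0.05, and the lowest adjusted p was 0.0533, for *Col17a1*. Of the 2260, 873 genes (7.45%) were higher in PNA+ cells and 1387 (11.8%) lower. DESeq2 called 513 genes and limma voom 1 gene in the same design. A fold change above 2 was seen for 14 genes higher and 450 lower in PNA+ cells. By direction alone, 1860 genes (15.9%) were higher and 1983 (16.9%) lower in PNA+ cells in all 4 pairs. Without *Cdkn1b*-/- rat 2, 249 genes passed, 40 higher (0.341%) and 209 lower (1.78%), and without rat 1 of that genotype 2 passed.

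Basal and myoepithelial transcripts were lower in PNA+ than in Cd49b+ cells in every rat. Of the 18 markers listed, 17 were tested, and 15 of them were lower in all 4 pairs and had an unadjusted p under 0.05, with a median log2 fold change over the 17 of -1.59 beside -0.01 over all genes tested, of which 16.9% were lower in all 4 pairs and 11.8% had such a p in that direction. The other 2, the laminin-receptor integrins *Itgb4* and *Itga6*, gave -0.10 and -0.16. *Krt5*, a keratin of basal cells, stood at 27.1 and 17.6 CPM in the PNA+ and 103 and 64.8 CPM in the Cd49b+ libraries of *Cdkn1b*+/+ rats 1 and 2. It stood at 11.6 and 17.3 CPM against 36.0 and 167 CPM in *Cdkn1b*-/- rats 1 and 2. In each rat the Cd49b+ library was the higher, and the 2 groups did not overlap, although *Cdkn1b*-/- rat 1 had less *Krt5* in both sorts than the other rats. The log2 fold change over both genotypes was -2.20 ± 0.28 (standard error), with an unadjusted p of 1.45e-04.

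The contractile genes went with the keratins. *Cnn1*, which encodes the smooth muscle protein calponin, was at 19.8 and 24.0 CPM in the PNA+ and 80.2 and 102 CPM in the Cd49b+ libraries of *Cdkn1b*+/+ rats 1 and 2, and at 15.1 and 25.0 CPM against 41.1 and 249 CPM in *Cdkn1b*-/- rats 1 and 2. Its log2 fold change was -2.25 ± 0.30. The smooth muscle actin *Actg2* gave -2.09 and the smooth muscle myosin *Myh11* -1.65. *Oxtr*, the oxytocin receptor through which myoepithelium contracts at milk ejection, was at 2.19 and 5.72 CPM in the PNA+ and 5.00 and 14.4 CPM in the Cd49b+ libraries of *Cdkn1b*+/+ rats 1 and 2, and at 0.891 and 2.02 CPM against 3.21 and 18.2 CPM in *Cdkn1b*-/- rats 1 and 2. The 2 transcription factors of basal identity on the list, *Tp63* and *Snai2*, gave -1.57 and -1.98, *Tp63* from levels of 0.891 to 5.16 CPM in PNA+ and 1.91 to 10.0 CPM in Cd49b+ libraries.

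Set against sorted basal cells the median of these markers was low in both populations, although single markers reached 105% of the basal level. The median of the 17 markers was 2.89% and 2.97% of the mean basal library of its genotype in the PNA+ and 6.28% and 7.80% in the Cd49b+ libraries of *Cdkn1b*+/+ rats, and 1.32% and 2.06% against 2.87% and 15.1% in *Cdkn1b*-/- rats. Their summed level was 1517 to 3104 CPM in PNA+, 2216 to 6729 CPM in Cd49b+, 1012 to 1883 CPM in mature luminal and 26591 to 51424 CPM in basal libraries, and none of the 17 was at 0 in a whole group. The plot of marker levels shows the Cd49b+ library above the PNA+ library in each rat. In bulk RNA, fewer cells of a type and less RNA per cell cannot be told apart, and the part of basal cells in this difference was not tested. Without *Cdkn1b*-/- rat 2 the median log2 fold change was -1.18, and 15 of the 17 then passed the adjusted threshold, against 1.78% of all genes in that direction. Without rat 1 of that genotype it was -1.68, with 0 passing.

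**Figure D1:**
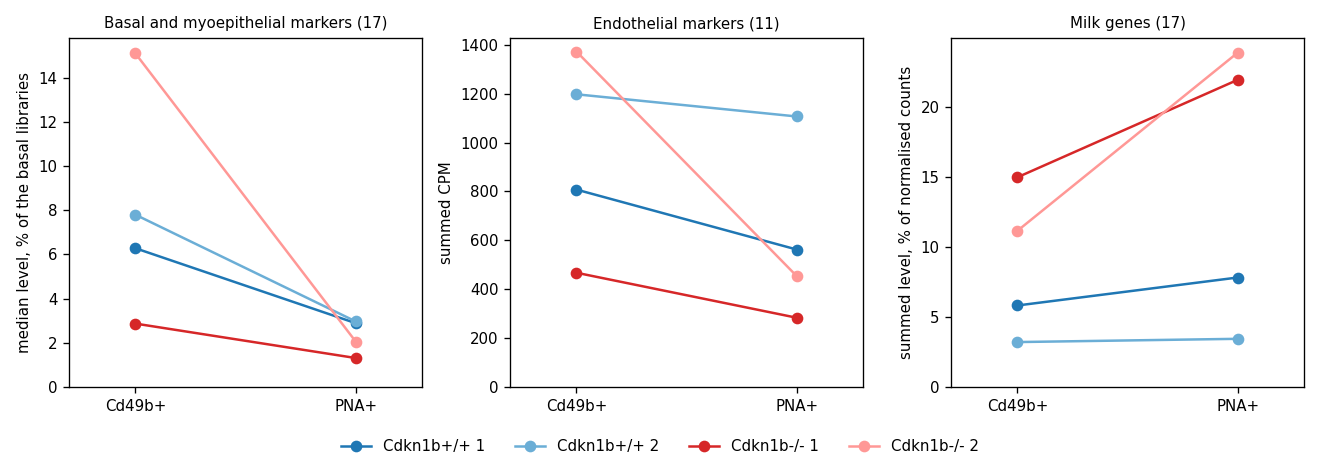
Basal (left), endothelial (middle) and milk (right) transcripts in the 8 libraries, with the 2 libraries of a rat joined. The vertical axes give the median level of 17 basal markers as a percentage of the basal libraries and the summed CPM of 11 endothelial markers. The right axis gives the summed CPM of 17 milk genes on a percent scale. CPM carry scaling factors between libraries, so that this is not the share of a library's own counts. Basal and endothelial levels are higher in the Cd49b+ library of each of the 4 rats and milk gene levels in the PNA+ library, and *Cdkn1b*-/- rat 2 has the steepest line in all 3 panels.

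Endothelial markers, from vessels that the Cd31 stain marks, were lower in PNA+ cells too. All 11 markers tested had a negative log2 fold change with an unadjusted p under 0.05, where 11.8% of all genes had one in that direction. Of the 11, 8 were lower in all 4 pairs, where 16.9% of all genes were, and the median of the 11 was -0.76. *Cdh5*, the cadherin of endothelial junctions, was at 65.5 and 138 CPM in the PNA+ and 84.0 and 149.7 CPM in the Cd49b+ libraries of *Cdkn1b*+/+ rats 1 and 2, and at 22.8 and 50.7 CPM against 51.6 and 154 CPM in *Cdkn1b*-/- rats 1 and 2. The log2 fold changes were -0.23 in *Cdkn1b*+/+ and -1.45 in *Cdkn1b*-/- rats, and their difference did not pass the test (adjusted p 0.595 in edgeR). Summed over the 11 markers the level was 563 and 1107 CPM in PNA+ and 808 and 1198 CPM in Cd49b+ libraries of *Cdkn1b*+/+ rats, and 284 and 454 CPM against 468 and 1373 CPM in *Cdkn1b*-/- rats. The mature luminal libraries held 150.0 to 245 CPM and the basal libraries 114 to 316 CPM, so that both lay near or below the lowest PNA+ library. Of the other markers listed, *Robo4* was at 0 in all 4 *Cdkn1b*-/- libraries. The count was 1 in place of 11 when *Cdkn1b*-/- rat 1 was left out and stayed at 11 without rat 2, where the median was -0.42 and 0 passed the adjusted threshold. The part of endothelial cells in this difference was not tested.

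Fibroblast genes had negative medians too. Of 11 tested, 6 were lower in all 4 pairs, where 16.9% of all genes were. An unadjusted p under 0.05 was reached by 6, where 11.8% of all genes had one in that direction. In *Cdkn1b*+/+ rats 6 were lower and 1 higher in both pairs. The median was -0.89 over both genotypes, -0.21 in *Cdkn1b*+/+ and -1.70 in *Cdkn1b*-/- rats, and no gene passed the test of the difference between genotypes. *Postn*, the matrix protein periostin, was at 31.3 and 32.6 CPM in the PNA+ and 45.1 and 58.9 CPM in the Cd49b+ libraries of *Cdkn1b*+/+ rats 1 and 2, and at 8.11 and 5.3 CPM against 29.7 and 47.8 CPM in *Cdkn1b*-/- rats 1 and 2. *Col3a1*, a fibrillar collagen chain, hardly differed in *Cdkn1b*+/+ rats (381 and 917 against 445 and 932 CPM) and was at 142 and 156 CPM against 292 and 732 CPM in *Cdkn1b*-/- rats 1 and 2. *Col1a1* ranged from 91.6 to 326 CPM in PNA+ and 102 to 239 CPM in Cd49b+ libraries of *Cdkn1b*+/+ rats, and *Fn1* from 27.3 to 69.5 against 40.9 to 62.7 CPM. *Col1a2* had 0 counts in all 8 libraries, although its partner chain *Col1a1* reached 326 CPM, so that nothing is read from its 0. Summed levels of the listed fibroblast genes overlapped, with 252 to 1643 CPM in PNA+ and 565 to 1602 CPM in Cd49b+ libraries, beside 130 to 1083 CPM in mature luminal and 892 to 4026 CPM in basal libraries. Without *Cdkn1b*-/- rat 1 the count at an unadjusted p under 0.05 was 1, and without rat 2 it was 6 with a median of -0.44. The part of fibroblasts in this difference was not tested.

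**Figure D2:**
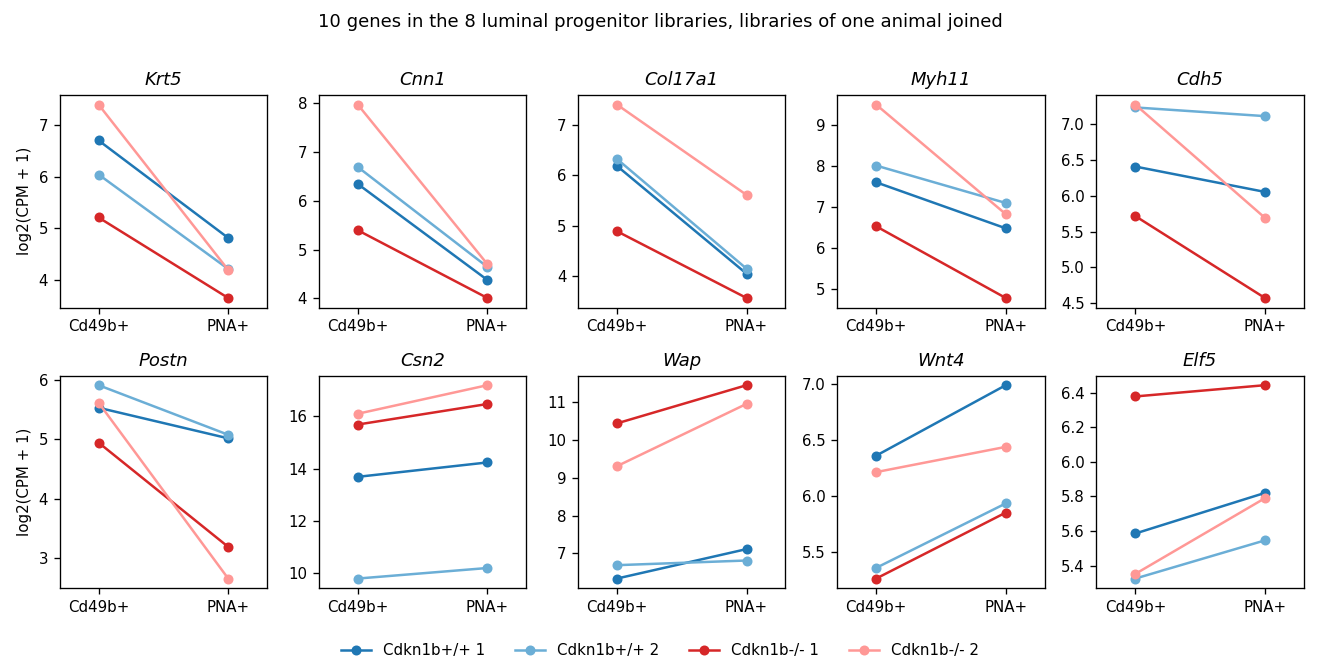
Levels of 10 genes in the 8 libraries on a log2(CPM + 1) scale, with the Cd49b+ and PNA+ library of a rat joined by a line and each panel on its own axis. The basal genes *Krt5*, *Cnn1*, *Col17a1* and *Myh11*, the endothelial *Cdh5* and the fibroblast *Postn* are lower in the PNA+ library of all 4 rats, and *Csn2*, *Wap*, *Wnt4* and *Elf5* are higher.

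Milk protein transcripts were higher in PNA+ cells. Of 17 milk and secretory genes, 9 were higher in all 4 pairs, where 15.9% of all genes were, and 11 had an unadjusted p under 0.05, where 7.45% of all genes had one in that direction, with a median log2 fold change of 0.49. *Csn2*, which encodes beta-casein, was at 19277 and 1183 CPM in the PNA+ and 13176 and 895 CPM in the Cd49b+ libraries of *Cdkn1b*+/+ rats 1 and 2, and at 90333 and 148555 CPM against 52510.5 and 69834 CPM in *Cdkn1b*-/- rats 1 and 2. The difference between rats was far larger than that between sorts, since the 2 *Cdkn1b*+/+ rats lay far apart, yet within each rat the PNA+ library was the higher. Its log2 fold change was 0.68 ± 0.12, with an unadjusted p of 7.95e-04. *Wap*, the whey acidic protein, was at 137 and 111 CPM in the PNA+ and 79.7 and 102 CPM in the Cd49b+ libraries of *Cdkn1b*+/+ rats 1 and 2, and at 2796 and 1985 CPM against 1388 and 633 CPM in *Cdkn1b*-/- rats 1 and 2. *Glycam1*, a mucin-like milk protein, was at 8345 and 85.0 CPM in the PNA+ and 4934 and 69.0 CPM in the Cd49b+ libraries of *Cdkn1b*+/+ rats 1 and 2, and at 8285 and 15492 CPM against 4551 and 6457 CPM in *Cdkn1b*-/- rats 1 and 2.

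Other milk genes gave values of the same sign. *Csn1s1*, an alpha casein, had a log2 fold change of 0.47, *Csn3*, the kappa casein that keeps micelles in solution, 0.55, and *Lalba*, the lactose synthase subunit alpha-lactalbumin, 0.69. The fat-secretion genes *Btn1a1*, *Xdh* and *Plin2* gave 0.34, 0.31 and 0.17, with unadjusted p of 0.125 to 0.221. The summed level of the 17 genes was 78192 and 34446 CPM in PNA+ and 58232 and 32126 CPM in Cd49b+ libraries of *Cdkn1b*+/+ rats. In *Cdkn1b*-/- rats it was 219252 and 238614 CPM against 149708 and 111510 CPM. Every rat had the larger sum in PNA+ cells, by little in *Cdkn1b*+/+ rat 2. Without *Cdkn1b*-/- rat 2 the median was 0.34 and 6 of the 17 passed the adjusted threshold, namely *Csn1s1*, *Csn1s2a*, *Csn2*, *Csn3*, *Glycam1* and *Wap*, where 0.341% of all genes passed in that direction. Without any 1 of the other 3 rats 0 passed, and 8 to 13 of the 17 had an unadjusted p under 0.05.

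The 4 milk genes that rose in PNA+ cells of *Cdkn1b*-/- rats are shown with their promoters, since milk genes are classic targets of Stat5, which binds the palindrome TTCNNNGAA. The sequences are from RefSeq (build GRCr8), run 5′ to 3′ from 250 bases before to 50 after the gene's start, and carry matches to TTCNNNGAA in capitals. The motif reads the same on both strands and no other motif was searched. *Csn2* lies at chr14:20601574-20601873, plus strand, *Csn1s2a* at chr14:20574422-20574721, minus strand, *Glycam1* at chr7:136561250-136561549, minus strand, and *Wap* at chr14:85719110-85719409, minus strand.
Csn2: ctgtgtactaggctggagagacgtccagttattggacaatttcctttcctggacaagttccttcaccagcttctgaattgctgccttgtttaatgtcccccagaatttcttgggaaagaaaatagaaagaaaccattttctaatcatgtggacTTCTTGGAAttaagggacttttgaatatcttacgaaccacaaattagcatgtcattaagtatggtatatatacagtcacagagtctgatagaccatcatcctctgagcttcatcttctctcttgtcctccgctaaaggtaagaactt
Csn1s2a: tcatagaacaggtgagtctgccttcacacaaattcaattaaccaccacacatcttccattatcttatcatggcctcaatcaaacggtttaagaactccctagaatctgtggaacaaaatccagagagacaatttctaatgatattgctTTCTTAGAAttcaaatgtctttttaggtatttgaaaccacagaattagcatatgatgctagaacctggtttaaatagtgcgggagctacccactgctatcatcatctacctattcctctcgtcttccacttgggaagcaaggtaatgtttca
Glycam1: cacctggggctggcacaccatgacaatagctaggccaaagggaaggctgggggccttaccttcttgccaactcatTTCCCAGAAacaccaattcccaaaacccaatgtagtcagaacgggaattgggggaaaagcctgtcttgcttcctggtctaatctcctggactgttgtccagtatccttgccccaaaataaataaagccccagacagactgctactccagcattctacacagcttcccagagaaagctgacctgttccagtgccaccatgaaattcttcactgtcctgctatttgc
Wap: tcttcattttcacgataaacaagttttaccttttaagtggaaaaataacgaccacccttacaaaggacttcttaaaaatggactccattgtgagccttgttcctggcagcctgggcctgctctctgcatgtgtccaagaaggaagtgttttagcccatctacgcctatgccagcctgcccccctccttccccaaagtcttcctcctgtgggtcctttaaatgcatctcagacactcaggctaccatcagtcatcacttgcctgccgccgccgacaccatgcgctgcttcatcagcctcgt
*Csn2* and *Csn1s2a* each hold 1 match, starting 97 and 102 bases before the gene's start, and *Glycam1* holds 1 at 175 bases, whereas these letters are not in the *Wap* window. Of all 33469 RefSeq promoters, 8.87% hold a match. That share is per promoter, whereas a gene counts below if any of its promoters holds a match, so the shares are not counted alike. Of the 10 genes that rose in *Cdkn1b*-/- rats, 7 have a promoter there and 3 hold a match, and of the 238 that fell, 168 have one and 10 hold a match. Of the 17 milk genes, 5 of the 16 with a promoter hold one. A match describes the letters and not a binding site.

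Hormone-sensing genes were slightly higher in PNA+ cells. Of 17 tested, 7 were higher in all 4 pairs, where 15.9% of all genes were. Higher with an unadjusted p under 0.05 were 8, where 7.45% of all genes had one in that direction. The median log2 fold change was 0.22 over both genotypes, 0.33 in *Cdkn1b*+/+ and 0.14 in *Cdkn1b*-/- rats. *Pgr* was at 66.7 and 57.4 CPM in the PNA+ and 54.0 and 41.8 CPM in the Cd49b+ libraries of *Cdkn1b*+/+ rats 1 and 2, and at 31.5 and 28.7 CPM against 27.8 and 20.8 CPM in *Cdkn1b*-/- rats 1 and 2. *Foxa1*, the pioneer factor of oestrogen receptor sites, was at 84.0 and 54.2 CPM in the PNA+ and 70.8 and 42.3 CPM in the Cd49b+ libraries of *Cdkn1b*+/+ rats 1 and 2, and at 24.1 and 31.2 CPM against 22.6 and 21.9 CPM in *Cdkn1b*-/- rats 1 and 2. *Wnt4*, a Wnt ligand made downstream of the progesterone receptor, was at 126 and 60.1 CPM in the PNA+ and 81.1 and 40.0 CPM in the Cd49b+ libraries of *Cdkn1b*+/+ rats 1 and 2, and at 56.7 and 85.7 CPM against 37.4 and 73.1 CPM in *Cdkn1b*-/- rats 1 and 2, with a log2 fold change of 0.49 ± 0.10 and an unadjusted p of 0.00225. *Esr1*, the oestrogen receptor, was higher in PNA+ cells in the 2 *Cdkn1b*+/+ rats (21.4 and 20.1 against 17.5 and 14.3 CPM) and mixed in *Cdkn1b*-/- rats (6.82 and 11.6 against 8.02 and 10.9 CPM). The most abundant members, *Prom1*, the transcription factor *Gata3* and the growth factor *Areg*, gave 0.20, 0.18 and 0.28. *Igf1r*, the growth factor receptor, was the 1 member lower in all 4 pairs, with -0.26. *Tnfsf11*, the RANK ligand, had 0 counts in all 8 libraries and in the mature luminal and basal libraries, so that nothing is read from its 0. Without *Cdkn1b*-/- rat 2 the median was 0.33 and 3 members passed the adjusted threshold, *Cited1*, *Stc2* and *Wnt4*, where 0.341% of all genes passed in that direction. Without any 1 of the other 3 rats 0 passed, and the 8 members higher at an unadjusted p under 0.05 became 5 without *Cdkn1b*+/+ rat 2 and 6 without either of the others.

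Luminal progenitor genes were not shifted together. Of 14 tested in the 8 libraries, 2 were higher and 2 lower in all 4 pairs, where 15.9% and 16.9% of all genes were. The median was 0.18, with -0.03 in *Cdkn1b*+/+ and 0.15 in *Cdkn1b*-/- rats, and 0.03 over both genotypes without *Cdkn1b*-/- rat 2. *Kit* was at 58.6 and 253 CPM in the PNA+ and 63.0 and 262 CPM in the Cd49b+ libraries of *Cdkn1b*+/+ rats 1 and 2, and at 269.6 and 71.1 CPM against 325 and 47.1 CPM in *Cdkn1b*-/- rats 1 and 2, so that the rats differed far more than the sorts. *Elf5* was higher in PNA+ cells in all 4 pairs, with 0.22 ± 0.08. *Sox9*, a progenitor transcription factor, gave 0.16 and the endotoxin co-receptor *Cd14* 0.27. *Lcn2*, which encodes lipocalin, ranged from 22.2 CPM in *Cdkn1b*+/+ rat 1 to 3879.6 CPM in *Cdkn1b*-/- rat 1 among PNA+ libraries, with a log2 fold change between the sorts of 0.36. Of 12 pan-luminal genes, 6 were higher and 0 lower in all 4 pairs, where 15.9% and 16.9% of all genes were. Their median was 0.14, and 0.09 without *Cdkn1b*-/- rat 2. The keratins *Krt8* and *Krt18* gave 0.13 each, and the tight junction claudin *Cldn7* gave 0.45 ± 0.08 from 79.4 to 203 CPM in PNA+ and 48.7 to 171 CPM in Cd49b+ libraries.

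**Figure D3:**
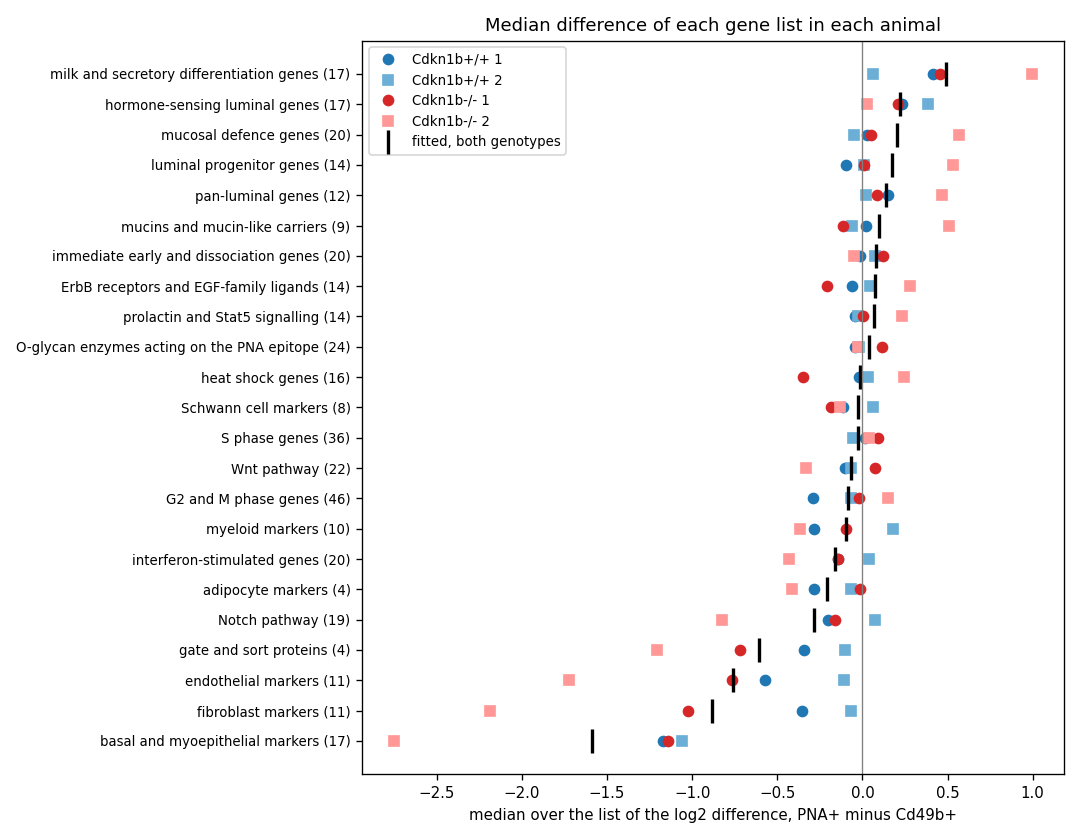
Median over each gene list of the log2 difference between the PNA+ and Cd49b+ library of a rat, 1 symbol per rat, with the median fitted fold change over both genotypes as a bar and the number of genes tested in brackets. Basal, fibroblast and endothelial lists lie left of 0 in all 4 rats, milk and hormone-sensing genes right of 0, and most other lists lie around it. *Cdkn1b*-/- rat 2 is farthest from 0 for the basal, fibroblast, endothelial and milk lists.

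Single genes with the lowest p over both genotypes are given as values. Lower in PNA+ cells was *Col17a1*, a hemidesmosome collagen of basal epithelium, at 15.5 and 16.7 CPM in the PNA+ and 71.6 and 78.9 CPM in the Cd49b+ libraries of *Cdkn1b*+/+ rats 1 and 2, and at 10.8 and 47.7 CPM against 28.6 and 168 CPM in *Cdkn1b*-/- rats 1 and 2. Its log2 fold change was -1.95 ± 0.14, and the unadjusted p was 4.54e-06. *Mme*, the membrane metallopeptidase also known as Cd10 and used as a myoepithelial marker, was at 3.26 and 4.88 CPM in the PNA+ and 13.9 and 20.1 CPM in the Cd49b+ libraries of *Cdkn1b*+/+ rats 1 and 2, and at 4.68 and 4.60 CPM against 11.7 and 31.9 CPM in *Cdkn1b*-/- rats 1 and 2. The receptor phosphatase *Ptprt* gave -2.32 ± 0.25, the calpain-family gene *Capn6* -1.69 ± 0.19, and *Ctgf*, a matrix-associated target of Yap, -0.70 ± 0.08. *Col17a1*, *Mme* and *Ptprt* were lower in the PNA+ library of every rat, which the rule for naming these genes required. *Cdkn1b*-/- rat 2 had more *Col17a1* in its PNA+ library than rat 1 in its Cd49b+ library. Higher in PNA+ cells was *Sftpd*, a collectin of mucosal defence, with 1.08 ± 0.16, at 9.57 and 0.625 CPM in the PNA+ and 4.86 and 0.319 CPM in the Cd49b+ libraries of *Cdkn1b*+/+ rats 1 and 2, and at 9.00 and 3.24 CPM against 4.37 and 1.19 CPM in *Cdkn1b*-/- rats 1 and 2. The secreted protease inhibitor-like *Wfdc2* gave 0.43 ± 0.07, *Plac8* 0.41 ± 0.07, and the fatty acid desaturase *Scd* 0.53 ± 0.09.

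The enzymes that build or cap the lectin's target differed little as a group. Of 24 O-glycan enzymes tested, 3 were higher and 3 lower in all 4 pairs, where 15.9% and 16.9% of all genes were. Higher and lower with an unadjusted p under 0.05 were 2 and 4, where 7.45% and 11.8% of all genes were. Their median was 0.04. *C1galt1*, the synthase of the T antigen, was at 57.2 and 74.5 CPM in the PNA+ and 53.8 and 76.9 CPM in the Cd49b+ libraries of *Cdkn1b*+/+ rats 1 and 2, and at 40.9 and 51.7 CPM against 65.4 and 33.8 CPM in *Cdkn1b*-/- rats 1 and 2, and its chaperone *C1galt1c1* gave 0.05. The sialyltransferases that can cap the antigen, *St3gal1* and *St3gal2*, were lower in the PNA+ library of all 4 rats, with -0.52 ± 0.16 and -0.90 ± 0.31 at unadjusted p of 0.0152 and 0.0257, where 16.9% of all genes were lower in all 4 pairs. *St3gal1* stood at 1.93 to 5.78 CPM in PNA+, 3.19 to 6.56 CPM in Cd49b+ and 8.34 to 25.8 CPM in basal libraries, so that it was also higher in the basal cells, and *St3gal2* at 0.267 to 0.875 CPM in PNA+ and 0.580 to 1.92 CPM in Cd49b+ libraries. *St6galnac2*, another sialyltransferase of O-glycans, gave 0.10 from 260.2 to 553 CPM in PNA+ libraries, and the lysosomal sialidase *Neu1* gave 0.19. Of 9 mucins and mucin-like carriers, 2 were higher and 1 lower in all 4 pairs, where 15.9% and 16.9% of all genes were. The mucin median of 0.10 was -0.15 without *Cdkn1b*-/- rat 2. The transmembrane mucin *Muc1* was higher in all 4 pairs, with 0.34 ± 0.08, at 232 and 201 CPM in the PNA+ and 190.3 and 185 CPM in the Cd49b+ libraries of *Cdkn1b*+/+ rats 1 and 2, and at 261 and 253 CPM against 190.1 and 167 CPM in *Cdkn1b*-/- rats 1 and 2.

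Of the surface proteins used in the sort, *Cd24* gave 0.27 and *Itgb1*, which encodes Cd29, -0.38 ± 0.11, lower in PNA+ cells in all 4 pairs. *Itgb1* was at 619.7 and 968 CPM in the PNA+ and 736 and 1025 CPM in the Cd49b+ libraries of *Cdkn1b*+/+ rats 1 and 2, and at 665 and 722 CPM against 969 and 1045 CPM in *Cdkn1b*-/- rats 1 and 2. *Pecam1*, which encodes Cd31, was at 90.4 and 145 CPM in the PNA+ and 134 and 162 CPM in the Cd49b+ libraries of *Cdkn1b*+/+ rats 1 and 2, and at 27.8 and 59.5 CPM against 50.3 and 193 CPM in *Cdkn1b*-/- rats 1 and 2, again lower in each PNA+ library. *Ptprc*, which encodes the leukocyte antigen Cd45, was at 0.139 to 0.938 CPM in PNA+ and 0.519 to 1.296 CPM in Cd49b+ libraries.

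In the Notch pathway, whose receptors act in luminal fate, 4 of 19 genes were lower in all 4 pairs, where 16.9% of all genes were. Lower with an unadjusted p under 0.05 were 6, where 11.8% of all genes had one in that direction. The median was -0.29, with medians of single rats from -0.82 to 0.07. The ligand *Dll1* gave -1.24 ± 0.30 from 3.12 to 18.2 CPM in PNA+ and 6.58 to 36.6 CPM in Cd49b+ libraries beside 96.9 to 163 CPM in basal libraries. The receptor *Notch1* gave -0.29 and the target *Hes1* 0.18. In prolactin and Stat5 signalling, the transcription factor *Stat5a* gave 0.17, the Stat5 target *Cish* 0.20, the kinase *Jak2* -0.34 and the inhibitor *Socs3* -0.37, with a median of 0.07 over 14 genes. Among the most abundant members, the gap junction gene *Gjb2* gave 0.18, the growth factor *Hbegf* 0.13, the receptor *Erbb3* 0.12, the Wnt inhibitor *Sfrp1* 0.12, the interferon-induced *Oasl* -0.08 and the replication clamp *Pcna* -0.06. Medians were -0.07 over 22 Wnt pathway genes, 0.07 over 14 ErbB receptors and ligands, 0.21 over 20 mucosal defence genes and -0.16 over 20 interferon-stimulated genes. They were -0.03 over 36 S phase genes, -0.08 over 46 genes of G2 and M phase, -0.01 over 16 heat shock genes and 0.08 over 20 immediate early genes. Of the 10 myeloid and 3 lymphoid markers tested, 0 were higher or lower in all 4 pairs, where 15.9% and 16.9% of all genes were. Of 4 adipocyte and 8 Schwann cell markers 1 each was lower. These lists are too short to be set apart from those shares. Without *Cdkn1b*-/- rat 2 the medians were -0.19 for the Notch, 0.01 for the ErbB, 0.11 for the mucosal defence and -0.05 for the interferon-stimulated genes. Of these and the luminal lists, members that then passed the adjusted threshold as higher in PNA+ cells included *Cldn7*, *Wnt4* and *Wfdc2*. Those that passed as lower included *Dll1*, the ErbB ligands *Nrg1* and *Nrg2*, the Wnt genes *Wnt6*, *Wnt10a* and *Dkk3*, *Atad2* and *Top2a*. Of all genes, 0.341% then passed as higher and 1.78% as lower.

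Within the genotypes, 0 genes passed in *Cdkn1b*+/+ rats, where 357 had an unadjusted p under 0.05, 90 higher (0.768%) and 267 lower (2.28%) in PNA+ cells, and DESeq2 called 24 and limma voom 1. In *Cdkn1b*-/- rats 248 genes passed, of which 10 (0.0853%) rose and 238 (2.03%) fell in PNA+ cells, with adjusted p from 0.035 up to the threshold of 0.05. The spread was shared by all 8 libraries in both tests. In the *Cdkn1b*-/- libraries alone 0 of the 248 passed and in the *Cdkn1b*+/+ libraries alone 530 genes did. That *Cdkn1b*+/+ fit had 1 residual degree of freedom and infinite prior degrees of freedom of the spread. Its 530 calls therefore rest on a spread pooled over genes and not on each gene's own. The count for *Cdkn1b*-/- rats was also 0 without either *Cdkn1b*+/+ rat, in the fit with the mature luminal libraries and without the rat as a block. The pair differences of the 2 *Cdkn1b*+/+ rats lay a median of 0.18 apart on the log2 scale and those of the 2 *Cdkn1b*-/- rats 0.36. For the difference of the PNA+ effect between the genotypes 0 genes passed in edgeR, with 668 at an unadjusted p under 0.05, and DESeq2 called 56 and limma voom 0. Leaving out *Cdkn1b*-/- rat 1 or rat 2 raised the counts to 3182 or 2243 for *Cdkn1b*-/- rats, 584 or 402 for *Cdkn1b*+/+ rats and 1989 or 341 for the difference. The *Cdkn1b*-/- effect and the difference then rest on 1 *Cdkn1b*-/- pair, whose spread is taken from the *Cdkn1b*+/+ pairs with 1 residual degree of freedom, so that these counts do not say how *Cdkn1b*-/- rats vary. With both *Cdkn1b*-/- rats in the fit, the calls in 1 genotype are not shown to differ from the other.

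Of the 17 basal markers tested, 7 fell in PNA+ cells of *Cdkn1b*-/- rats, where 2.03% of all genes did. They were *Krt5*, *Actg2*, *Myh11*, *Oxtr*, *Snai2*, *Cav1* and *Vim*. Their log2 fold changes ran from -2.73 for *Snai2* to -1.48 for *Vim*, the mesenchymal intermediate filament, beside -1.42 and -0.36 in *Cdkn1b*+/+ rats. Of the 11 endothelial markers tested 4 fell, *Cdh5*, *Kdr*, the main receptor of vascular endothelial growth factor, *Esam* and *Emcn*. Their values ran from -1.52 for *Kdr* to -1.24 for *Emcn*. Of the 11 fibroblast genes tested, *Postn*, *Lum*, *Fn1* and *Col3a1* fell, with -2.58 for *Postn* to -1.70 for *Col3a1*. Among the members of other lists that fell were the Notch ligand *Jag1* (-1.17) and the Notch-modifying fringe enzyme *Mfng* (-1.31), the Wnt-inhibitor family member *Dkk3* (-2.54) and *Ifit3* (-1.51), which is induced by interferon. The 5 genes with the lowest log2 fold change above the level set for naming genes were *Gpm6b* (-2.76 ± 0.38), *Oxtr*, *Ptprt* (-2.68 ± 0.35), the cartilage collagen *Col2a1* (-2.67 ± 0.46) and *Postn* (-2.58 ± 0.32).

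Most of the genes that fell were more abundant in the sorted basal cells. Of the 238 genes that fell, 164 (68.9%) were at least 2-fold higher in basal than in mature luminal libraries, where 14.4% of all genes were, and 0 were at least 2-fold lower, where 9.25% of all genes were. In *Cdkn1b*+/+ rats 213 of the 238 (89.5%) were lower in both PNA+ libraries, where 31.1% of all genes were, with a median log2 fold change of -0.39 there beside -1.66 in *Cdkn1b*-/- rats. These *Cdkn1b*+/+ libraries took no part in the log2 fold change that named the genes but did in the spread.

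The 10 genes that rose in PNA+ cells of *Cdkn1b*-/- rats were *Csn1s2a*, *Wap*, *Glycam1* and *Csn2* of the milk list, and *Ass1*, *Chrdl2*, *Scgb2a2*, *Aacs*, *Slc50a1* and *Rn45s*. *Csn1s2a*, an alpha-S2 casein, had the largest change of the milk genes, with 1.36 ± 0.18, at 2922 and 3181 CPM against 1339.9 and 981 CPM in *Cdkn1b*-/- rats 1 and 2 and at 1196 and 13.6 CPM in the PNA+ and 774 and 12.5 CPM in the Cd49b+ libraries of *Cdkn1b*+/+ rats 1 and 2. *Wap* changed by 1.27 ± 0.21, *Glycam1* by 1.01 ± 0.16 and *Csn2* by 0.88 ± 0.14. *Ass1*, the urea cycle enzyme argininosuccinate synthase, changed by 1.00 ± 0.16, at 77.5 and 33.4 CPM against 43.7 and 13.5 CPM in *Cdkn1b*-/- rats 1 and 2, and the Bmp-antagonist family member *Chrdl2* by 0.98 ± 0.16. *Slc50a1*, a sugar transporter, was at 173 and 145 CPM against 109 and 87.6 CPM in *Cdkn1b*-/- rats 1 and 2 and *Aacs*, a cytosolic ketone body enzyme of lipid synthesis, at 94.0 and 81.5 CPM against 56.8 and 45.6 CPM in *Cdkn1b*-/- rats 1 and 2. *Rn45s* names the repeated ribosomal RNA precursor, so its value of 2.68 from 6.64 and 2.51 against 0.751 and 0.528 CPM is uncertain. Of the 10, 7 were higher in both *Cdkn1b*+/+ pairs, where 30.3% of all genes were, and 7 were at least 2-fold higher in mature luminal than in basal libraries, where 9.25% of all genes were.

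In *Cdkn1b*+/+ rats the lowest p among genes higher in PNA+ cells belonged to *Wnt4* (0.62), *Sftpd* (0.97), the cysteine dioxygenase *Cdo1* (0.54), *Cldn7* (0.49) and the stress cytokine *Gdf15* (0.53), given as log2 fold changes that did not pass. Among lower genes it belonged to *Col17a1* (-2.22), *Tp63* (-2.04), *Capn6* (-1.89), *Ptprt* (-2.05) and *Mme* (-2.06). For the difference between genotypes the lowest p was that of *Npy1r*, a neuropeptide Y receptor, with -0.45 in *Cdkn1b*+/+ and -2.09 in *Cdkn1b*-/- rats and an adjusted p of the difference of 0.595. *Tll1*, *Chrdl1*, *Adgrl4* and *Fgl2* also had the more negative value in *Cdkn1b*-/- rats, by -1.42, -1.91, -1.35 and -1.32. In the other direction were *Sult5a1* (0.89), *Gpnmb* (1.00), *Nsun6* (1.04), *Csn1s2a* (0.96) and *Ndufaf6* (0.83). Across the 11725 genes the log2 fold changes of the 2 genotypes, which share no library, correlated with Pearson's r of 0.50 and Spearman's rho of 0.54, a description over genes that are not independent replicates.

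**Figure D4:**
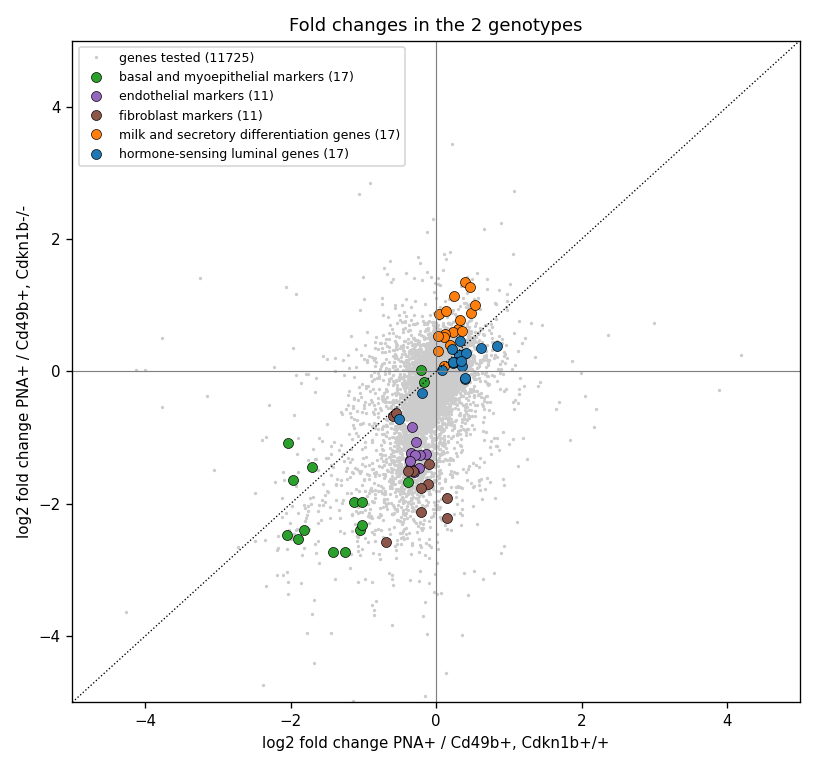
Log2 fold change of PNA+ over Cd49b+ cells in *Cdkn1b*+/+ (horizontal axis) and *Cdkn1b*-/- rats (vertical axis) for the 11725 genes tested, with 5 gene lists coloured, the line of equal change dotted and 5 genes outside the axes. Basal markers lie low on both axes, endothelial and fibroblast markers mainly on the vertical one, and milk genes above 0 on both.

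In 3 of 4 rats the 2 sorts were closer to each other than any libraries of the same sort from different rats. The distance between the PNA+ and Cd49b+ library of a rat, the Euclidean distance of log2 CPM over 12809 genes, was 44.3 to 92.1 with a median of 56.8, the highest being that of *Cdkn1b*-/- rat 2. Libraries of the same sort and genotype but another rat lay 87.2 to 112 apart, and those of the other genotype 91.8 to 122. From the mature luminal library of the same rat the PNA+ library lay 78.9 to 120.5 and the Cd49b+ library 79.5 to 145 away. From the basal library the PNA+ library lay 161 to 185 and the Cd49b+ library 143 to 166 away.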

How the data were processed

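RNA of sorted cells was amplified with a low-input polyA kit (SMARTer v4) and sequenced as single reads on a NextSeq instrument. The authors aligned reads with STAR 2.5.1b to the rat build rn6 and counted them per gene with HTSeq, per the submitters' processing notes, and deposited raw counts per gene with no normalisation. Entries for reads not counted on a gene (47.1% to 59.2% of a file's total in the 8 libraries) were left out. Most of these were reads without a unique alignment (35.4% to 46.2%), and 9.87% to 14.1% lay on no gene. In R 4.3.3, genes were kept by edgeR's filterByExpr, scaled by TMM and tested with edgeR 4.0.16 (quasi-likelihood, Benjamini-Hochberg adjustment, threshold 0.05), with the rat as a block and the PNA+ effect over both genotypes (3 residual degrees of freedom) or in each genotype (2). Fold changes are log2, standard errors are from that fit, and levels are CPM with TMM factors over 16 libraries of the 4 rats. DESeq2 1.42.0 and limma 3.58.1 were alternatives. The scripts were tested on simulated data.

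The pairing rests on the number in the labels, which do not state that the same number means the same rat. Deviations of same-numbered libraries from their group means correlated with r of 0.261 to 0.803 in 12 pairs. The p-values measure the spread between these libraries. A level under 1 CPM rests on few counts in every library, and no interval was computed for it. The gene lists and comparisons were chosen with earlier results of these data known, and the check of the labels and the list counts without each rat after seeing them here.

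Named genes were those of the sort and *Cdkn1b*, per direction the called genes with the largest fold change (mean log2 CPM above 2, same direction in all pairs) or, where under 5 passed, the 5 with the lowest p, at most 5 within a genotype and for the difference, and the 3 most abundant members of a list. Other list members named were chosen for their role or after their values were seen.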

Additional observations from a re-analysis of the deposited data

Results flagged for a closer look

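For 2 gene lists the median log2 difference between PNA+ and Cd49b+ cells had one sign in both rats of one genotype and the other sign in the other genotype. Neither difference was tested. The difference given is that between the genotypes in the mean of the 2 rat medians, *Cdkn1b*-/- minus *Cdkn1b*+/+. Over 14 genes of prolactin and Stat5 signalling it was 0.153. The medians were -0.041 and -0.027 in *Cdkn1b*+/+ rats 1 and 2 and 0.006 and 0.232 in *Cdkn1b*-/- rats 1 and 2. Over 3 lymphoid markers the difference was -0.696. There the medians were 0.084 and 0.472 against -0.005 and -0.831. Of these markers *Cd8a* and *Ptprcap* were under 1 CPM in every library of both sorts. *Lck* was at 2.13 to 3.59 CPM in PNA+ and 2.25 to 3.69 CPM in Cd49b+ libraries. In both lists *Cdkn1b*-/- rat 1 thus lay close to no difference, and most of the *Cdkn1b*-/- value came from rat 2. Groups held 2 libraries each, too few for a test of whether 1 library lies far from its group.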

How the results depend on the processing

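Counts at an adjusted p under 0.05 are given for both genotypes, *Cdkn1b*+/+, *Cdkn1b*-/- and the difference, from 0, 0, 248 and 0. They were 1, 1, 346 and 0 with RLE scaling, 10, 1, 621 and 0 without a filter on low counts, 0, 0, 91 and 0 with at least 10 counts in every library, 513, 24, 782 and 56 in DESeq2, 1, 1, 396 and 0 in limma voom, and 1, 0, 0 and 0 with the mature luminal libraries in the fit. Fitted alone, *Cdkn1b*+/+ libraries gave 530, with infinite prior degrees of freedom of the spread, and *Cdkn1b*-/- libraries 0, with 4.21. Leaving out 1 rat gave 0 to 249, 0 to 584, 0 to 3182 and 0 to 1989. The cause was not tested, but the prior degrees of freedom of the spread were 3.64 for both genotypes and 4.18 for each, against 78.7 for each genotype without *Cdkn1b*-/- rat 1 and 21.4 without rat 2. The 248 genes kept their sign in every setting in which they were tested, and 0 of them passed in 5 settings. Of 110 values for the 10 genes named over both genotypes, 0 reversed. Another scaling moved the median of all genes by at most 0.034.

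Without the replicate block the counts were 0, 0, 0 and 0, with 358, 47, 594 and 44 at an unadjusted p under 0.05.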
